A study of Homo sapiens with 6 samples.

Results

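The genes described here are 7 cathepsins (CTSS, CTSB, CTSL, CTSD, CTSH, CTSZ and CTSC), the protease legumain (LGMN) and the lysosomal glycoproteins CD68 and LAMP3. They were chosen by symbol, with earlier results of the comparison described here known, and each of the 10 symbols had 1 row among the 29889 genes with a count. All 10 were also among the 15847 genes kept for testing. A549, a line of human lung adenocarcinoma cells, was transfected by Lipofectamine 2000 with a pIRES-hrGFP-1a plasmid that carried CELF6 (CELF6-OE) or with the empty plasmid (Control), and RNA was collected after 48 h. There were 3 libraries per group, made from polyadenylated RNA. The transfection was transient, and the share of cells that took up the plasmid was not measured here.

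Lysosomes are acidic organelles in which proteins, lipids and sugars are broken down. Most cathepsins are cysteine proteases of the papain family, while CTSD is an aspartic protease, and all are made as inactive precursors that mature in the endosomes and lysosomes. Legumain cleaves after asparagine and also cleaves some cathepsins from a single chain to paired chains. CD68 and LAMP3 are heavily glycosylated membrane proteins of the LAMP family. CD68 is widely used as a marker of macrophages, and LAMP3 marks mature dendritic cells and the lamellar bodies of alveolar type II cells.

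CELF6, the overexpressed gene, had 11571 to 20789 counts in the CELF6-OE libraries and 0 in every Control library, where a count of 0 allows up to 3. CELF6-OE replicate 3 had the lowest CELF6 level, at an FPKM (fragment count scaled to transcript length and to library size) of 172.27 against 270.09 and 294.94 in replicates 1 and 2. The total count on genes was 33748328 to 37920700 per library. Of 8 epithelial markers, KRT8, KRT18 and KRT7 had a mean FPKM between 1670 and 2530 in each group. CDH1 had a mean of 10.8 in Control and 3.58 in CELF6-OE. EPCAM, MUC1, CLDN4 and CLDN7 had at most 1.77 FPKM in any library. Of 17 leukocyte markers, 15 had a row, and 11 of these stayed under an FPKM of 0.3 in every library. PTPRC (CD45) had 0 counts in 5 libraries and 2 in Control replicate 1. The summed FPKM of the leukocyte markers lay between 6.81 and 8.45 in CELF6-OE and between 6.75 and 7.23 in Control, most of it from CD14 and CORO1A, which were not called (log2 fold change 0.17 and 0.18, adjusted p = 0.443 and 0.373). Of the 4 leukocyte markers tested, the other two were called lower: ITGAM (-0.73, adjusted p = 0.0119) and ITGAX (-0.69, adjusted p = 0.0163), integrin subunits of myeloid cells with at most 0.59 FPKM in any library. Their part in the CD68 and CTSS results below was not tested. The leukocyte markers PTPRC, CD163, TYROBP and SPI1 had at most 3 counts in any library. In bulk RNA, fewer cells that express a gene and less RNA per cell cannot be told apart.

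All 10 genes had a lower fitted level in CELF6-OE than in Control. The changes ran from a 5.82-fold lower level of LAMP3 to a 1.04-fold lower level of CTSH. LAMP3, CTSS, CD68, LGMN and CTSL were called lower, where a call needs a fold of 1.5 or more and a Benjamini-Hochberg adjusted p under 0.05 from the quasi-likelihood test of edgeR. Thus 5 of 10 were called lower, against 5.82% of all 15847 genes tested. None of the 10 was called higher, as was also the case in DESeq2, limma-voom and edgeR's exact test, and 0 were higher at an unadjusted p under 0.05. The percentage called higher among all genes was 1.35%. At an adjusted p under 0.05 with no limit on the fold, 8 of 10 were lower, against 11.5% of all genes. The genes were chosen with this contrast known, so these counts describe them and test nothing, and no p is given for any of the 10. Their median log2 fold change was -0.61, against 0.011 over all genes tested.

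**Figure D1:**
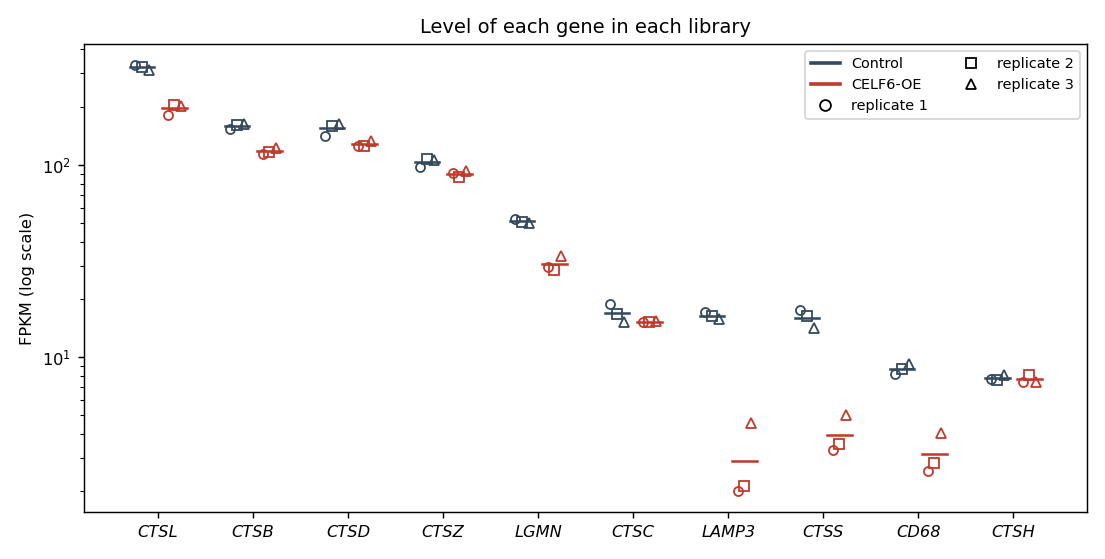
FPKM of the 10 genes in each of the 6 libraries on a log scale, ordered by the Control mean, with 1 symbol per replicate and a horizontal line at each group mean. LAMP3, CTSS and CD68 are well below Control in CELF6-OE, with replicate 3 the highest of the CELF6-OE libraries, while CTSC and CTSH overlap between the groups.

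CTSS encodes cathepsin S, an endopeptidase that stays active at neutral pH and is known for cutting the invariant chain of MHC class II molecules. The gene occupies 150730079 to 150765957 on the minus strand of chromosome 1 (GRCh38, as for every position given). In the order of replicates 1 to 3, the CELF6-OE libraries had an FPKM of 3.3, 3.53 and 5.03 and the Control libraries 17.62, 16.41 and 14.19. Every CELF6-OE library was below every Control library, and the gap between them, 9.16 FPKM, was 5.27 times the larger of the group SDs. The fitted log2 fold change was -2.05 (SE 0.14), which puts the CELF6-OE level at 24.1% of Control.

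CTSL encodes cathepsin L, a broad endopeptidase, on the plus strand of chromosome 9 from 87724051 to 87731469. It had the highest FPKM of the 10 genes in both groups. The values were 182.42, 205.41 and 203.57 in CELF6-OE and 330.82, 325.14 and 312.35 in Control, so the lowest Control library was above the highest CELF6-OE library by 107 FPKM. Its log2 fold change was -0.74 (SE 0.064), or 59.8% of the Control level.

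CTSB encodes cathepsin B, which acts both as an endopeptidase and as a dipeptidyl carboxypeptidase, and lies on chromosome 8. Its FPKM was 114.09, 117.58 and 122.04 in CELF6-OE and 154.87, 161.33 and 163.33 in Control. These groups did not overlap either, but the log2 fold change of -0.47 (SE 0.065), a 1.39-fold lower level, was under the fold limit of the call.

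The other 3 cysteine cathepsins, CTSH, CTSC and CTSZ, trim peptides from their ends and had fitted levels of 85.1% to 96.2% of Control. CTSH, an aminopeptidase that also takes part in surfactant protein B processing, had an FPKM of 7.44, 8.1 and 7.46 in CELF6-OE and 7.73, 7.6 and 8.08 in Control. Its groups overlapped, and the log2 fold change was -0.056 (SE 0.083). CTSC, the dipeptidyl peptidase that activates serine proteases of immune granules, had 15.16, 15.16 and 15.44 in CELF6-OE and 18.96, 16.88 and 15.2 in Control. The spread was in the Control group, where replicate 3 was within the CELF6-OE range, and the log2 fold change was -0.18 (SE 0.069). CTSZ, a carboxypeptidase also called cathepsin X, had 91.19, 86.37 and 92.74 in CELF6-OE and 97.15, 107.33 and 106.23 in Control. These groups did not overlap, though their gap of 4.41 FPKM was smaller than the Control SD of 5.59, and the log2 fold change was -0.23 (SE 0.072). The gene NELFCD overlaps CTSZ on the opposite strand and had 1914 to 2162 counts per library. The libraries were made with a strand-specific kit, but whether the counting used the strand is not given in the sources used here, so an exchange of reads between these genes was not tested.

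CTSD encodes cathepsin D, the main aspartic protease of the lysosome, at 1752752 to 1764573 on the minus strand of chromosome 11. Its FPKM was 126.06, 124.97 and 133.81 in CELF6-OE and 141.58, 159.56 and 164.31 in Control. The groups did not overlap, but Control replicate 1 was close to CELF6-OE replicate 3, and the gap of 7.77 FPKM was 0.648 times the larger SD. The log2 fold change was -0.31 (SE 0.079). RP11-295K3.1 (ENSG00000250644), a read-through gene on the same strand, covers 22.9% of the exon bases of CTSD and held 0.371 to 0.421 counts for each count of CTSD. With its counts added to CTSD, an alternative chosen after seeing the data, the log2 fold change was -0.32 (SE 0.075).

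LGMN encodes legumain, the asparaginyl endopeptidase, on the minus strand of chromosome 14 from 92703807 to 92748679. The FPKM was 29.49, 28.6 and 33.45 in CELF6-OE and 52.45, 50.82 and 50.23 in Control. All CELF6-OE libraries were below all Control libraries, with a gap of 16.8 FPKM. The log2 fold change of -0.78 (SE 0.071) was near that of CTSL, and the level was 58.4% of Control for LGMN and 59.8% for CTSL.

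LAMP3, at 183122215 to 183163839 on the minus strand of chromosome 3, had the largest change of the 10 genes. Its FPKM was 2.02, 2.13 and 4.52 in CELF6-OE and 17.12, 16.43 and 15.77 in Control. The Control libraries differed by little (coefficient of variation 4.11%), whereas CELF6-OE replicate 3 was 2.18 times the mean of the other two CELF6-OE libraries. The log2 fold change was -2.54 (SE 0.23), which puts CELF6-OE at 17.2% of Control, and it was -3.02 without CELF6-OE replicate 3.

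CD68 occupies 7579491 to 7582111 on the plus strand of chromosome 17. The FPKM of CD68 was 2.57, 2.83 and 4.03 in CELF6-OE and 8.15, 8.65 and 9.25 in Control, without overlap, and its log2 fold change was -1.50 (SE 0.15). The counts under the CD68 identifier may hold only part of the reads of CD68 exons. RP11-186B7.4 (ENSG00000264772), annotated on the same strand from 7572826 to 7582024, covers 81.6% of the exon bases of CD68 and also runs through EIF4A1. The shared bases are 38.8% of the 4554 exon bases of RP11-186B7.4, and how many of its reads lie in CD68 exons is not known. RP11-186B7.4 had a count of 5005, 5583 and 6823 in the CELF6-OE libraries and 16108, 17456 and 18010 in the Control libraries. CD68 itself was counted 175, 197 and 267 times after CELF6 overexpression and 580, 640 and 685 times in Control. The ratio of the overlapping gene to CD68 was 25.6 to 28.6 in every library. EIF4A1, a translation initiation factor gene with 5212 to 5769 counts, had a log2 fold change of -0.013 (SE 0.062; adjusted p = 0.904). RP11-186B7.4 had one of -1.49 (SE 0.11), close to that of CD68, and the sum of RP11-186B7.4 and CD68 gave -1.49 (SE 0.11). The log2 fold change was thus nearly the same for CD68 and for RP11-186B7.4. Their sum is made up mostly of RP11-186B7.4 counts, so it had to come out near the value of that gene and is no separate measure. The FPKM level given for CD68 may depend on how the reads were divided. The mean FPKM listed for RP11-186B7.4 was 97 ± 3.45 in Control and 35.3 ± 6.36 in CELF6-OE (SD, n = 3 each).

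**Figure D2:**
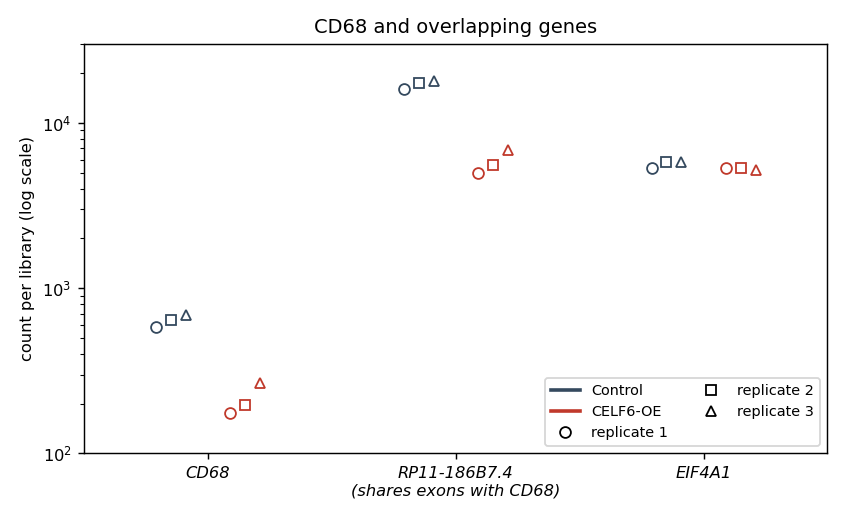
Counts per library on a log scale for CD68, for RP11-186B7.4, which shares exons with it, and for EIF4A1, through which RP11-186B7.4 also runs. CD68 and RP11-186B7.4 are lower in all CELF6-OE libraries and EIF4A1 is at 5212 to 5769 counts in all 6.

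**Figure D3:**
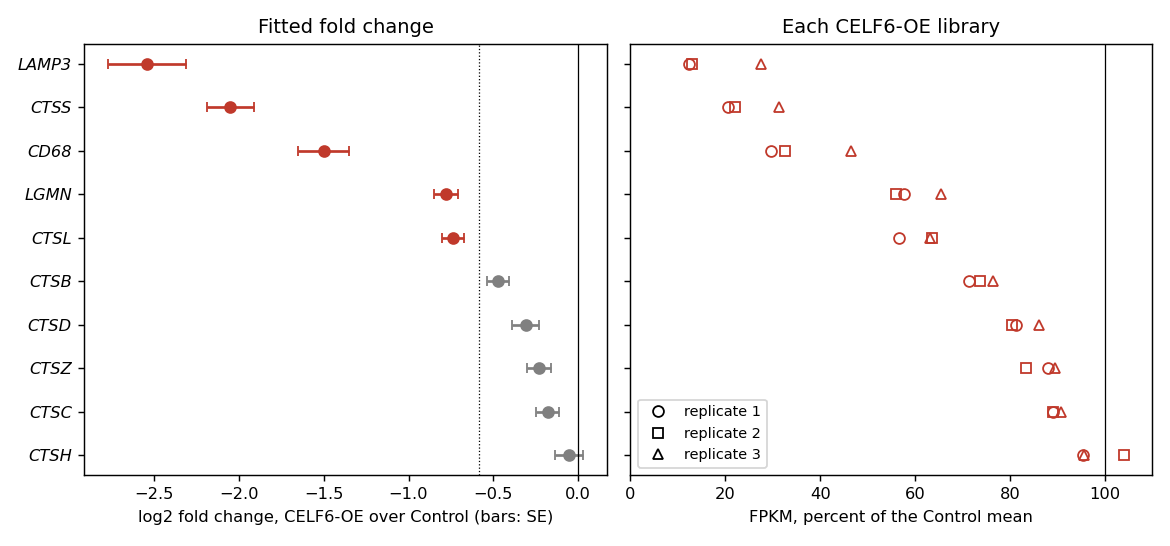
Left, the fitted log2 fold change of each gene with its standard error, in red where called lower and grey where not, with a dotted line at the 1.5-fold limit. Right, the FPKM of each CELF6-OE library as a percentage of the Control mean, where replicate 3 is furthest to the right for 8 of the 10 genes.

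The FPKM of 8 of the 10 genes did not overlap between the groups, with CELF6-OE lower, against 17.9% of all genes tested. CTSH and CTSC overlapped, and none was higher without overlap, against 20.1% of all genes. Within CELF6-OE, replicate 3 had the highest FPKM of the 3 libraries for 8 of the 10 genes, and replicate 2 for the other 2, CTSL and CTSH. Replicate 3 was the highest for 31.2% of all genes tested and for 68.1% of the 922 genes called lower. Its level relative to the mean of replicates 1 and 2 was 2.18 for LAMP3, 1.49 for CD68 and 1.47 for CTSS, but 1.15 for LGMN and between 0.96 and 1.07 for the other 6. CELF6 itself was at 61% of that mean in replicate 3. The part of the CELF6 level in these differences was not tested. In Control, replicate 1 was the highest for 5 genes, replicate 3 for 4 and replicate 2 for 1. The shares over all genes were not computed for Control.

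FPKM allows levels to be compared between genes per length. In Control the order of the mean FPKM was CTSL (323 ± 9.46), CTSB (160 ± 4.42), CTSD (155 ± 12), CTSZ (104 ± 5.59), LGMN (51.2 ± 1.15), CTSC (17 ± 1.88), LAMP3 (16.4 ± 0.675), CTSS (16.1 ± 1.74), CD68 (8.68 ± 0.551) and CTSH (7.8 ± 0.248; SD, n = 3 each). CTSB overlapped with CTSD, and CTSC, LAMP3 and CTSS overlapped with their neighbours, so their order is not set. In CELF6-OE the last 3 places were taken by CTSS (3.95 ± 0.939), CD68 (3.14 ± 0.779) and LAMP3 (2.89 ± 1.41), which overlapped with each other, and CTSH at 7.67 ± 0.375 lay above all of them. The mean FPKM of CTSS was thus 2.06 times that of CTSH in Control and 0.516 times in CELF6-OE. The place of CD68 rests on the reads counted under its own identifier and would be higher if reads of RP11-186B7.4 were assigned to it. These levels also depend on the length used by the authors. The counts and FPKM of CTSC imply a length of about 7966 bases, against 1870 bases of its canonical transcript in GENCODE v44, and for CTSL about 2467 against 1654 bases.

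The summed FPKM of the 7 cathepsin genes was 539.7, 561.1 and 580.1 in CELF6-OE and 768.7, 794.3 and 783.7 in Control. The highest CELF6-OE sum was below the lowest Control sum, and the mean in CELF6-OE was 71.6% of that in Control (560 ± 20.2 against 782 ± 12.9; SD, n = 3 each). CTSL made up 56.6% of the difference between the means, CTSB 18.9% and CTSD 12.1%. CTSS, with a much larger fold change, made up 5.46%, because it was a small part of the sum. Its share of the summed FPKM was 2.06% ± 0.24 in Control and 0.702% ± 0.143 in CELF6-OE. The share of CTSL was 41.3% ± 1.58 in Control and 35.2% ± 1.4 in CELF6-OE, and that of CTSD was 19.8% ± 1.32 and 22.9% ± 0.569. CTSB kept a like share, at 20.4% ± 0.361 in Control and 21% ± 0.0577 in CELF6-OE. CTSL, CTSB, CTSD and CTSZ together held 94.2% to 95.2% of the sum in every library. These shares describe the chosen genes and carry no test.

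**Figure D4:**
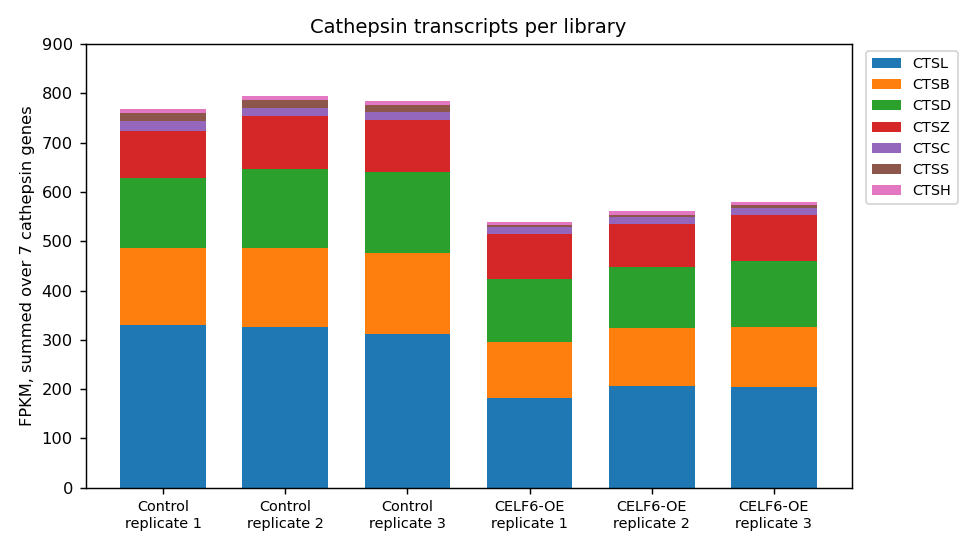
Stacked FPKM of the 7 cathepsin genes in each library, on an axis that starts at 0. The sum is 768.7 to 794.3 in Control and 539.7 to 580.1 in CELF6-OE, and CTSL is the largest part in each library.

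A list of 10 other cathepsins and related lysosomal peptidases was written by name, with earlier results of these data known. Of these, 7 were tested, 1 was called lower and none higher, with a median log2 fold change of -0.26. The called gene was CTSO, a little-studied cysteine cathepsin at low level, with counts of 27, 26 and 34 after CELF6 overexpression against 88, 79 and 56 with the empty plasmid. Its log2 fold change was -1.28 (SE 0.23; adjusted p = 0.00325 in edgeR's quasi-likelihood test). CTSV, the closest relative of CTSL, had a log2 fold change of 0.071 (SE 0.12; adjusted p = 0.706). Its mean FPKM was 1.59 ± 0.107 in Control and 1.71 ± 0.211 in CELF6-OE (SD, n = 3 each). For CTSK, which encodes the collagen-degrading cathepsin of osteoclasts, the log2 fold change was -0.20 (SE 0.20; adjusted p = 0.535). NAPSA, an aspartic protease of alveolar type II cells, had an FPKM of 0.3, 0.4 and 0.46 in CELF6-OE and 0.56, 0.61 and 0.88 in Control. These did not overlap, but the log2 fold change of -0.86 (SE 0.28) had an adjusted p of 0.0536 and was not called. CTSA, TPP1 and CTSF had log2 fold changes of -0.22, -0.26 and -0.34, with adjusted p of 0.0307, 0.0211 and 0.0125, all under the fold limit. The fold changes of the listed relatives and of the 10 genes were not tested against each other.

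Of 11 listed cystatins and serpins 6 were tested, and 4 of them were called lower and none higher, with a median log2 fold change of -0.78. CST3 encodes cystatin C, the main secreted inhibitor of cysteine cathepsins. Its FPKM was 59.68, 55.19 and 62.05 in CELF6-OE and 83.96, 91.4 and 90.97 in Control, without overlap. The log2 fold change was -0.62 (SE 0.074; adjusted p = 0.00023). CST1 was at 50.1% of the Control level (adjusted p = 0.00761) and CST2 had a log2 fold change of -1.75 (adjusted p = 0.0027). These are near-identical cystatin genes, and only uniquely located reads were counted, so reads that fit both genes could be left out. The same holds for SERPINB3 (-0.94, adjusted p = 0.0422) and its neighbour SERPINB4. CSTB, the abundant intracellular inhibitor stefin B, had a mean FPKM of 67.9 ± 2.9 in Control and 63.2 ± 1.5 in CELF6-OE and was not called (log2 fold change -0.13, adjusted p = 0.194). CSTA was not called either (-0.52, adjusted p = 0.0564). The 6 cysteine cathepsins summed to 3.85 to 4.22 times the FPKM of CSTB and CST3 together in Control and to 3.32 to 3.71 times in CELF6-OE. This ratio leaves out CST1, which had 43.81 to 65.02 FPKM in Control and 17.27 to 33.62 in CELF6-OE. It therefore does not give the balance of cathepsins against all listed inhibitors.

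Across the wider lysosome few genes passed the fold limit. There were 7 lists, of other cathepsins, inhibitors, membrane proteins, hydrolases, proton pump subunits, sorting factors and regulators. Of these, 153 genes were tested (CLN3 under each of its identifiers) and 10 were called lower, or 6.54%, against 5.82% of all genes. Of the 10, 4 came from the 6 inhibitors tested (66.7%), a list that holds the secreted cystatin C. The share called lower was 14.3% of other cathepsins, 3.57% of membrane genes, 6.52% of hydrolases and 4.35% of pump subunits. It was 0% of sorting genes and of regulators. None of the 153 was called higher in edgeR's quasi-likelihood test, nor in DESeq2, limma-voom or edgeR's exact test, and 13 were higher at an unadjusted p under 0.05. Without the fold limit, 44 (28.8%) were lower at an adjusted p under 0.05 and 2 (1.31%) higher, against 11.5% and 6.47% of all genes. The median log2 fold change of these genes was -0.13, against 0.011 over all genes. The lists were written with earlier results of these data known.

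Among the 46 lysosomal hydrolases and their cofactors tested, 3 were called lower and 22 were lower without the fold limit, with a median log2 fold change of -0.24. IDUA, which degrades glycosaminoglycans, had a log2 fold change of -1.14 (SE 0.14; adjusted p = 0.000293). The sulfatide-degrading ARSA and the hyaluronidase HYAL1 had -0.62 each (adjusted p = 0.00106 and 0.041), and HYAL1 was at low level, with an FPKM of 0.66 both in the highest CELF6-OE and in the lowest Control library. PSAP, which encodes the precursor of the saposins and had the highest level, was at 302 ± 1.4 FPKM in Control and 261 ± 7.18 in CELF6-OE (SD, n = 3 each), and its log2 fold change of -0.24 was under the fold limit. Of 28 lysosomal membrane genes, with CLN3 counted under each of its identifiers, 1 was called. It was SCARB2, the receptor that carries glucocerebrosidase to the lysosome. SCARB2 had an FPKM of 14.32, 14.41 and 16.53 in CELF6-OE and 28.83, 27.02 and 23.58 in Control. Its log2 fold change was -0.84 (SE 0.079; adjusted p = 5.19e-05). LAMP1, the classical lysosomal membrane protein and a relative of LAMP3 and CD68, was named after its values were seen and had a log2 fold change of -0.14 (SE 0.057; adjusted p = 0.121), and CD63 one of -0.34 (adjusted p = 0.0048).

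The genes that acidify, sort and regulate the lysosome had median log2 fold changes of 0.015, -0.0072 and 0.046. Of 23 subunits of the proton pump (V-ATPase), TCIRG1 was called lower, at a log2 fold change of -0.71 (SE 0.089; adjusted p = 0.000307). ATP6V1A (0.33) and ATP6V1B2 (0.26), named after their values were seen, were the 2 lysosomal genes that were higher at an adjusted p under 0.05 without the fold limit. None of 26 sorting genes, such as M6PR and RAB7A, was called by edgeR or by the other tools, with 5 higher and 6 lower at an unadjusted p under 0.05. At an adjusted p under 0.05 without the fold limit, 4 sorting genes were lower and 0 higher. None of 17 regulators was called by any of these tools, with 1 higher and 3 lower at an unadjusted p under 0.05. At an adjusted p under 0.05 without the fold limit 2 of them were lower: RRAGA, a small GTPase of nutrient sensing at the lysosome (log2 fold change -0.23, adjusted p = 0.0229), and TFEB, a transcription factor of lysosomal genes (-0.43, SE 0.13, adjusted p = 0.046). TFEB had an FPKM of 1.04, 1.18 and 1.4 in CELF6-OE and 1.49, 1.71 and 1.57 in Control, without overlap. TFE3, a related factor, had a log2 fold change of 0.12 (adjusted p = 0.244). TFEB and TFE3 were named after their values were seen.

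**Figure D5:**
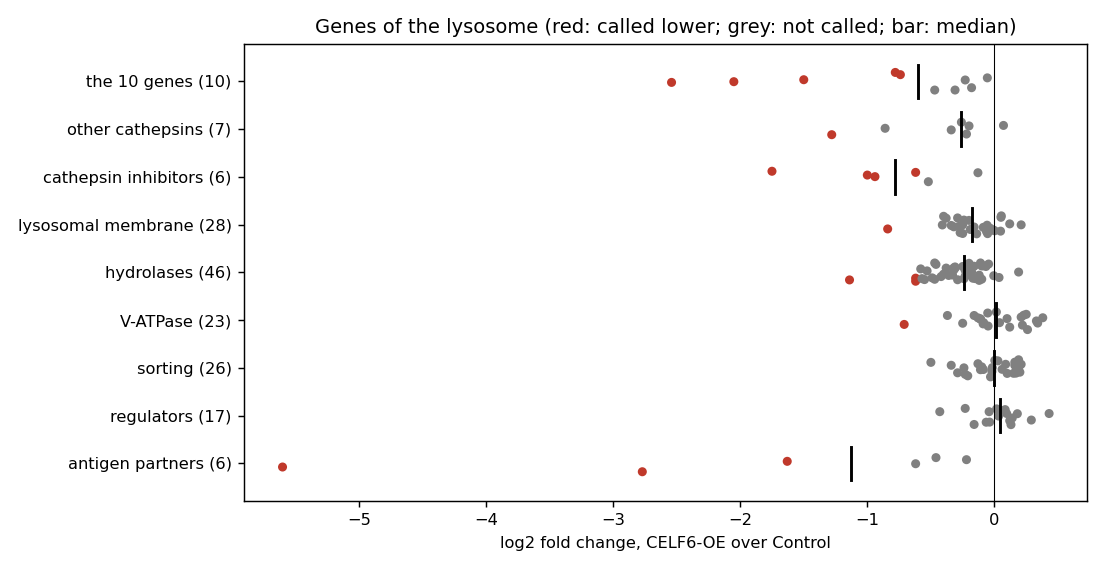
Fitted log2 fold change of each tested gene in the 10 chosen genes and in 8 lists, 1 point per gene, red where called lower and grey where not called, with a bar at the median and the number of genes in brackets. CLN3 is counted and drawn under each of its identifiers. The medians of the proton pump, sorting and regulator lists are at 0.015, -0.0072 and 0.046, against -0.61 for the 10 genes.

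A list of endosomal partners of CTSS and LGMN, which also holds the chemokine CX3CL1, was looked at too. Of 10 listed genes 6 were tested, 3 (50%) were called lower and none higher, against 5.82% and 1.35% of all genes. CD74, the invariant chain that CTSS cuts, was counted 5, 8 and 12 times in the CELF6-OE libraries and 349, 481 and 464 times in the Control libraries. It had the largest change of the listed genes, with a log2 fold change of -5.60 (SE 0.24; adjusted p = 3.8e-07). CX3CL1, a membrane-bound chemokine, fell by 2.77 on the log2 scale (adjusted p = 0.000203), with 6 to 16 counts in CELF6-OE. TLR3, an endosomal sensor of double-stranded RNA that cathepsins process, fell by 1.63 (adjusted p = 0.000118). UNC93B1, which carries such receptors to endosomes, had -0.46 (adjusted p = 0.00671, under the fold limit), HLA-DMA -0.62 (adjusted p = 0.0505) and HLA-DMB -0.22 (adjusted p = 0.657).

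Marker genes of the cell type were looked at beside these results. All 8 epithelial markers had a log2 fold change below 0 and 3 were called lower: CDH1 (E-cadherin; -1.62, adjusted p = 0.000105), CLDN4 (-1.52) and MUC1 (-1.47). The summed FPKM of the 8 markers lay between 5000 and 5760 in CELF6-OE and between 6140 and 6990 in Control, nearly all from the keratins. KRT8 (-0.47, adjusted p = 0.00532) and KRT18 (-0.36, adjusted p = 0.021) were lower in edgeR's quasi-likelihood test but under the fold limit. KRT7 had a log2 fold change of -0.086 (adjusted p = 0.577 in that test). LAMP3 and CTSH are also genes of alveolar type II cells, and of 10 markers of that cell type 8 stayed under an FPKM of 0.3 in every library. The other two were LPCAT1, at a log2 fold change of -0.042 (adjusted p = 0.694), and ABCA3, the lamellar body transporter, at -0.087 (adjusted p = 0.572). Surfactant genes SFTPA1, SFTPA2 and SFTPC had at most 3 counts in any library.

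The pattern of LAMP3 over the 6 libraries was most like that of BST2, PLEKHA4, MX2, LGALS9 and IFI27 among the other called protein-coding genes. The Pearson correlation of log2 CPM (library-scaled counts) with LAMP3 was 0.9997 for BST2 and 0.9994 for the others. This is a description over 6 libraries in 2 separate groups, and 123 of 927 such genes had a correlation over 0.99. BST2 encodes tetherin, which holds budding virus at the membrane, and had an FPKM of 13.57, 13.82 and 30.51 in CELF6-OE and 134.01, 133.56 and 129.25 in Control. Like LAMP3 it was highest within CELF6-OE in replicate 3. MX2, an antiviral GTPase, had 3.58, 3.46 and 7.03 in CELF6-OE and 24.65, 24.81 and 23.34 in Control, and was also highest within CELF6-OE in replicate 3. BST2 and MX2 were picked by their correlation with LAMP3, so the shared order of replicates follows from that choice. Replicate 3 was the highest for 68.1% of all genes called lower.

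Promoter sequence was looked at because several of the genes were lower together. RefSeq windows of GRCh38.p14, from 250 bases before to 50 after the gene start, matched CD68, CTSC, CTSD, CTSH, CTSL and CTSZ. The motifs searched on both strands were the core of the interferon-stimulated response element (GAAA, any 2 bases, GAAA), TTCNNNGAA (interferon-gamma activated site), CACGTG (E-box) and TCACGTGA (core of the element bound by TFEB family factors, which holds the E-box). The window of CTSD is shown because it was the sole match among these 6 genes. Its capitals mark the E-box, which lies 47 to 42 bases before the gene start. The 30 printed bases span chr11:1763957-1763986 on the minus strand. Positions within windows are counted from the RefSeq start, which differs from the GENCODE gene boundaries given above, as for CTSD and CTSL.
CTSD: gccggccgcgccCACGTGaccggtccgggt
An E-box was found in 7.26% of all 35116 promoter windows, the interferon-stimulated core in 3.57%, the interferon-gamma site in 7.66% and the TFEB core in 0.98%. The letters of the other 3 motifs were in none of the 6 windows, which says nothing of the factors themselves. Among these 6 genes CD68 and CTSL were called lower. The promoters of LAMP3, CTSS, LGMN and CTSB were not analysed here.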

How the data were processed

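Reads were cleaned by the authors (FASTX-Toolkit), placed on GRCh38 (TopHat2) and, where uniquely located, counted per gene. They deposited raw counts, with no normalization, and FPKM values rounded by the authors. Libraries were strand-specific. The annotation release, the counting tool and whether it used the strand are not given in the sources used here. Counts of the 15847 genes kept by filterByExpr (minimum count 10) were scaled with TMM and tested with edgeR 4.0.16 (R 4.3.3; glmQLFit, glmQLFTest, prior count 0.125) over 6 libraries, with Benjamini-Hochberg adjustment over these genes. The prior degrees of freedom of edgeR were 7.15 after this filter but infinite with 29889 genes, where the spread of a single gene would not enter its p. Calls needed an adjusted p under 0.05 and a fold change of 1.5. FPKM gave levels, means and SDs. GENCODE v44 (GRCh38) gave coordinates and shared exons. DESeq2 1.42.0, limma-voom (limma 3.58.1), other scalings and filters, and leaving out each library were alternatives. The fit was checked on simulated counts. The 10 genes and the lists were chosen with earlier results of these data known. The named genes were the 10 genes, CELF6, up to 4 called genes with the largest changes and up to 3 uncalled genes with the highest FPKM of each list, any gene of the other cathepsins, inhibitors and endosomal partners, and the 5 genes most like the gene with the largest change. Overlapping genes, markers at or near 0 counts, LAMP1, TFEB, TFE3 and the higher V-ATPase subunits were named after their values were seen. The methods call the replicates biological and do not say whether they were separate transfections, so p-values measure the spread between these libraries.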

Additional observations from a re-analysis of the deposited data

How the results depend on the processing

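All 192 alternative values of the log2 fold changes of the 10 genes were below 0 and moved by less than the larger group SD of the gene's log2 CPM (LAMP3 the furthest, to -3.02 without CELF6-OE replicate 3). The 5 calls held in each alternative except a fold of at least 2, which left 3 (LAMP3, CTSS and CD68); without a fold threshold 8 were called. Over all genes, a fold of at least 2 left 475 lower and 64 higher against 922 and 214, no fold threshold gave 1820 and 1025, and a mean count of at least 50 gave 141 higher. For the other lysosomal genes, with the inhibitors included, a fold of at least 2 left 3 called lower, and no fold threshold gave 44 lower and 2 higher. Leaving out each library in turn gave 672 to 989 genes lower and 107 (without CELF6-OE replicate 2) to 371 higher (without Control replicate 1; 115 without Control replicate 2), 7 to 15 other lysosomal genes lower (15 without CELF6-OE replicate 3) and 0 higher, 5 of the 10 genes in each case, and a summed cathepsin FPKM of 70.4% to 72.9% of Control. The cause of these shifts was not tested. The replicate numbers share no stated batch, and same-numbered libraries did not deviate together (correlation -0.0113, -0.0212 and -0.0722 over 15847 genes). With the replicate number as a block, 921 genes were lower and 201 higher, 882 and 188 of them shared with the test without it. In that test 9 other lysosomal genes were lower. No library correlated best with the library of the other group that had its own number. CPM in place of FPKM gave a summed cathepsin level of 69.7% of Control.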
